A study of Arabidopsis thaliana with 9 samples.

Results

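The histone H3 genes of *Arabidopsis* were followed in early heart embryos of 3 genotypes. The loci were set by name: the 5 H3.1 genes, the H3.3 genes *HTR4*, *HTR5* and *HTR8*, the male gamete gene *HTR10* and the centromeric gene *CENH3*. These are 10 of the 33603 genes in the deposited tables, with 14 of their 41683 transcript models. The rule names loci and uses no measured value, although the set was chosen with earlier results of these data known. Col-0, which lacks a functional *FRIGIDA* (*FRI*) gene, was compared with Col *FRI*, which carries an active *FRI* in Col-0, and with 35S::*FCA*, in which the viral 35S promoter drives *FCA* in Col-0. Each genotype had 3 libraries, each from 20 dissected embryos, prepared with Smart-seq2 (whole-transcript cDNA amplified by PCR) and sequenced as read pairs of 75 nt over 2 runs. Plants that bore the Col *FRI* embryos had been vernalized for 6 weeks as seedlings, and no cold period is given for the other genotypes, so effects of *FRI* and of vernalization cannot be told apart. The 35S promoter is active in most tissues, and the number of transgenic lines is not given in the sources used here.

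H3 pairs with H4 at the core of the nucleosome. H3.1 is made mainly when DNA is replicated and is laid down behind the replication fork by the chaperone CAF-1. H3.3 is made throughout the cell cycle and is exchanged into active genes by the HIRA complex and ATRX. CENH3 replaces H3 at centromeres, where the kinetochore forms, and HTR10 is the H3 of sperm chromatin in pollen. Early heart embryos are tissues of dividing cells.

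The H3.1 and H3.3 transcripts are near-identical in what they encode, and their sequences show how the classes can be told apart in the reads. In the RefSeq annotation of TAIR10.1, all 5 H3.1 genes encode 1 protein and all 3 H3.3 genes encode another, each with a coding sequence of 411 bases. Over the 135 codons between start and stop, numbered from the codon after the start, the classes differ in the encoded residue at codons 31, 41, 87 and 90. Codons 26 to 41 are shown 5′ to 3′ for 2 genes of each class, with codons 31 and 41 in capitals.
AT1G09200 (H3.1): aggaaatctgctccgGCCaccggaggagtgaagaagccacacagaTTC
AT5G65360 (H3.1): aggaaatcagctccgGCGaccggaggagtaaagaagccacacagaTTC
HTR5 (H3.3): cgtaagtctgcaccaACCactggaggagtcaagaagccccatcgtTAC
HTR8 (H3.3): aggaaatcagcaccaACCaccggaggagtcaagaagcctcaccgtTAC
Codons 83 to 94 of the same genes are shown with codons 87 and 90 in capitals.
AT1G09200 (H3.1): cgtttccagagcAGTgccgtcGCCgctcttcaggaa
AT5G65360 (H3.1): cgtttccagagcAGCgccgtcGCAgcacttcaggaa
HTR5 (H3.3): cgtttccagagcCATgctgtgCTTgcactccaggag
HTR8 (H3.3): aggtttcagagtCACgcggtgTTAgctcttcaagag
Outside these codons the genes differ at silent positions. The coding sequences were 80.3 to 89.5% identical between H3.1 genes, 78.6 to 88.8% between H3.3 genes and 74.0 to 80.3% between the classes. Of the 31-base words in the annotated transcripts, 95.1 to 100% occurred in no other gene for every H3 gene except AT3G27360, for which 61.9% did. AT3G27360 overlaps *SDH2-1* (AT3G27380), a subunit of succinate dehydrogenase, and shares 298 such words with it and 37 with AT5G10400. Its values are therefore uncertain. *HTR8*, *HTR10* and *CENH3* had whole estimated counts (within 0.01) in all 9 libraries.

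Gene structure separated the classes as well. Each H3.1 gene has 1 coding exon, whereas *HTR5* has 4, *HTR4* and *HTR8* have 3, *HTR10* has 4 and *CENH3* has 9. *CENH3* lies at chr1:143489-146479 on the plus strand, AT1G09200 at chr1:2971571-2972334 and AT3G27360 at chr3:10129105-10129937, both on the minus strand. AT5G10390 and AT5G10400 lie 577 bases apart on chromosome 5, and *HTR4* and *HTR5* lie 42 bases apart on chromosome 4. The octamer CGCGGATC, a motif known from plant histone promoters, was searched on both strands of the 250 bases before each RefSeq gene start. It was found before 3 of 5 H3.1 genes and before *HTR5*, against 37 of 27443 protein-coding genes (0.135%). Other core histone genes carried it too, with 2 of 8 H4 genes, 3 of 13 H2A genes and 0 of 11 H2B genes. It was not found in this window before AT3G27360, AT5G10390, *HTR4*, *HTR8*, *HTR10* or *CENH3*. Most of the window before *HTR4* lies within *HTR5*, which is 42 bases away. Each match is shown with its flanks in the direction of transcription, the octamer in capitals, on the minus strand of TAIR10.1.
AT1G09200, chr1:2972397-2972444: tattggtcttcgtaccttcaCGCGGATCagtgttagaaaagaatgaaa
AT1G09200, chr1:2972335-2972373: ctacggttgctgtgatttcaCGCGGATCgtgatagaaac
AT5G10400, chr5:3271050-3271097: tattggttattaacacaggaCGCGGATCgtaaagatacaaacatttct
AT5G65360, chr5:26120680-26120727: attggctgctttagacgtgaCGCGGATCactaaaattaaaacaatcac
HTR5, chr4:18558946-18558982: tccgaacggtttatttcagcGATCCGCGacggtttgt
The match before *HTR5* is on the strand opposite to the gene. The 3 H3.1 genes with a match were the 3 with the highest levels of their class, as given next, and nothing about binding was measured.

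Depth was 15166826 to 18768286 estimated counts in the Col *FRI* libraries and 17996274 to 25847613 in the libraries of the other genotypes. Organelle genes took 11.9 to 22.8% of TPM (a length-corrected share of all transcripts in a library). The 10 embryo markers summed to 249 to 354 TPM, the 5 endosperm markers to 1.44 to 4.66 TPM and the 5 seed coat markers to 8.42 to 14.5 TPM. *LEC1*, an embryo regulator, was the largest part of the embryo sum at 142 to 214 TPM, and the embryo marker *WOX2* (6.11 to 9.74 TPM) was at the level of the seed coat marker *STK* (4.94 to 10.2 TPM). The 3 Col *FRI* libraries were unusually alike: the median chi-square of gene counts between 2 libraries, scaled so that sampling noise alone gives 1, was 1.15 to 1.58 among them. It was 2.88 to 13.4 among 35S::*FCA* libraries and 6.80 to 18.3 among Col-0 libraries. The expected split came from library totals alone, so shifts in RNA composition between libraries raise this measure, and greater depth raises it too. The scaling factors for composition ran from 0.964 to 0.997 in Col *FRI*, from 0.939 to 1.11 in 35S::*FCA* and from 0.875 to 1.08 in Col-0. The part of composition and depth in the contrast was not tested. The labels call all of them biological replicates. The p-values measure the spread between these libraries only.

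H3 transcripts were abundant in every library. The 10 genes took 0.594 to 0.766% of TPM. Averaged over the 9 libraries, AT1G09200 was at 1475 TPM (range 1278 to 1639), the 93rd gene of all by level. AT5G65360 was at 1319 TPM (1154 to 1489) and AT5G10400 at 1024 TPM (854 to 1142), also H3.1 genes. *HTR5* at 862 TPM (742 to 1031) and *HTR8* at 698 TPM (598 to 789), both H3.3 genes, came next. AT5G10390 (H3.1) was at 554 TPM (506 to 626), *HTR4* (H3.3) at 505 TPM (455 to 562) and AT3G27360 (H3.1) at 357 TPM (293 to 435). *CENH3* was at 43.4 TPM (36.6 to 53.7), 2175th among all genes. This order of the 9 genes was the same in each of the 9 libraries, although most neighbours overlapped in their ranges over libraries. TPM ranges did not overlap between AT5G65360 and AT5G10400, between *HTR4* and AT3G27360 or between AT3G27360 and *CENH3*. Part of the order rests on the transcript lengths used for TPM. AT1G09200 has 607 nt in the authors' index and 764 nt in RefSeq. With RefSeq lengths, or in counts, AT5G65360 was first and AT1G09200 second in all 9 libraries. *HTR4* has 766 nt in the index and 945 nt in RefSeq. With RefSeq lengths *HTR4* and AT3G27360 each ranked 7th to 8th, so their order changed between libraries. In counts *HTR4* ranked 6th to 8th and AT3G27360 7th to 8th, and *HTR5* was 3rd and AT5G10400 4th in all 9 libraries.

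**Figure D1:**
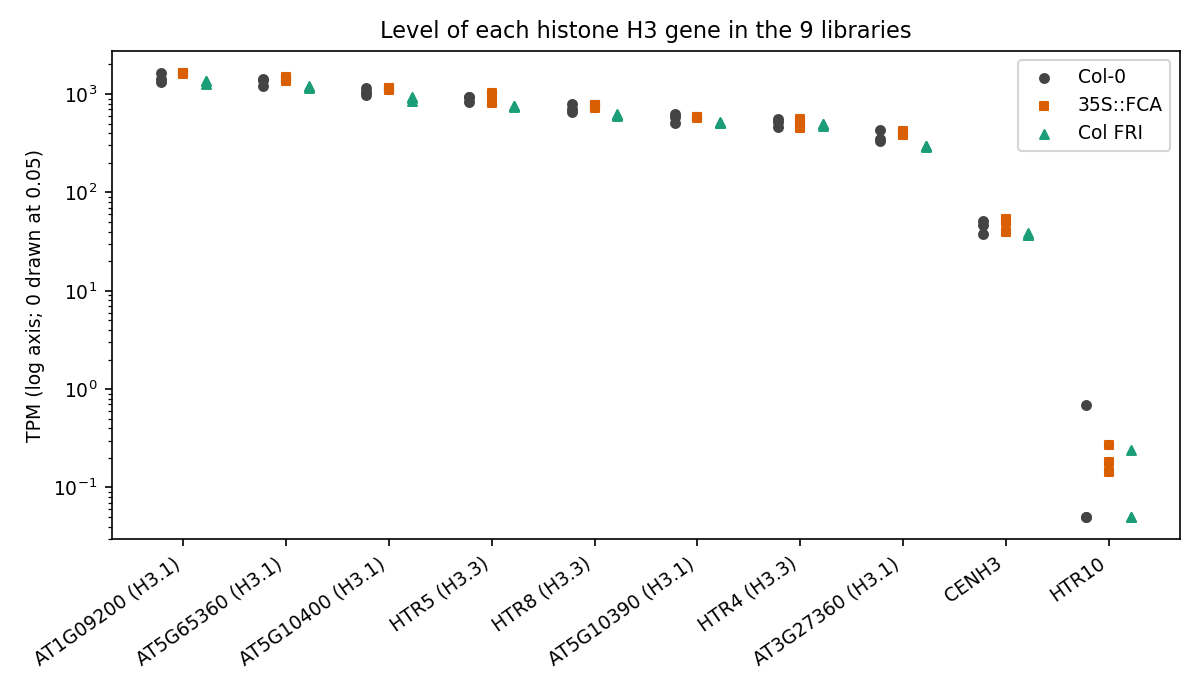
TPM of each H3 gene (log axis) in the 9 libraries, marked by genotype, with values of 0 drawn at 0.05. The 5 H3.1 and 3 H3.3 genes sit between 293 and 1639 TPM, *CENH3* between 36.6 and 53.7 TPM and *HTR10* at or below 0.687 TPM.

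*HTR10* was at or near 0. Its estimated counts were 0, 12 and 0 in the Col-0 libraries, 2, 3 and 5 in 35S::*FCA* and 0, 0 and 3 in Col *FRI*. Col-0 replicate 2 alone held the 12 counts (0.687 TPM), and the gene did not pass the filter on low counts, so it was not tested. A count of 0 allows up to 3 counts, which is 0.122 to 0.198 CPM (counts scaled to library size) in the 4 libraries at 0, and this covers counting error only. Of the pollen markers, *VGD1*, a pollen tube pectin methylesterase, was at 1.68 to 33.5 TPM in 35S::*FCA*. It was at 1.59 to 10.5 TPM in Col-0 and 5.38 to 5.79 TPM in Col *FRI*. *DUO1*, the sperm lineage factor, had at most 1 count in any library. *HAP2*, on the same list, was present in every library, with at least 14 and at most 46 counts. *GEX2* counts ran from 0 to 27.3 in Col-0 and from 0 to 11.3 in Col *FRI*, and were 0 throughout 35S::*FCA*. The 5 pollen markers together ranged over 2.66 to 11.3 TPM in Col-0, over 2.21 to 38.4 TPM in 35S::*FCA* (median 25.8) and over 6.57 to 6.82 TPM in Col *FRI*.

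The 5 H3-like genes outside the set were also low, apart from *HTR11* (AT5G65350) with 16.9 TPM on average (12.1 to 20.0). AT1G75600 was at 1.68 TPM, AT1G13370 at 0.266 TPM, AT5G12910 at 0.223 TPM and AT1G75610 at 0.0787 TPM. *HTR11* and AT1G75600 were the 2 that could be tested, and neither passed the test in any of the 3 comparisons.

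The make-up of the H3 transcript pool differed little between genotypes. H3.1 genes gave 69.8, 68.9 and 69.1% of the summed H3.1 and H3.3 TPM in the Col-0 libraries (69.3% ± 0.481, SD, n = 3). They gave 71.7, 68.8 and 69.9% in 35S::*FCA* (70.1% ± 1.45, SD, n = 3) and 69.2, 69.5 and 69.5% in Col *FRI* (69.4% ± 0.159, SD, n = 3). The ranges of all 3 genotypes overlapped. *CENH3* stood at 0.599 to 0.682 TPM per 100 TPM of H3.1 and H3.3 in Col-0, at 0.560 to 0.706 in 35S::*FCA* and at 0.592 to 0.630 in Col *FRI*, again with overlap.

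Within a class the shares varied by a few percentage points over the 9 libraries, and for some genes they separated the genotypes. AT1G09200 gave 29.9 to 31.8% of H3.1 TPM, AT5G65360 26.7 to 28.9%, AT5G10400 20.9 to 22.4%, AT5G10390 11.1 to 12.4% and AT3G27360 6.81 to 8.41%. In this class AT3G27360 was at 6.81 to 7.22% in Col *FRI*, below both other genotypes (7.28 to 8.27% in Col-0 and 7.30 to 8.41% in 35S::*FCA*). AT1G09200 was at 29.9 to 30.98% in Col-0, below both others (from 31.3%), and AT5G10390 at 11.1 to 11.4% in 35S::*FCA*, below both others (from 11.7%). *HTR5* gave 40.1 to 43.5% of H3.3 TPM and *HTR8* 32.7 to 36.4%. The *HTR5* share was lower in Col *FRI* (40.1 to 40.9%) than in Col-0 (41.03 to 43.4%) and overlapped that in 35S::*FCA* (40.7 to 43.5%). The *HTR4* share was 23.9 to 24.3% in Col-0, 22.9 to 23.7% in 35S::*FCA* but 26.2 to 26.6% in Col *FRI*. No 2 of the *HTR4* ranges overlapped. They are shares, for which no test was made and no background rate was obtained. Shares within a class add up to the whole, so they are not independent of each other. Groups this small often lie apart. In normalised CPM (defined below), groups did not overlap for 36.2% of all genes tested in Col *FRI* against Col-0. The rate was 19.1% in 35S::*FCA* against Col-0 and 44.2% in Col *FRI* against 35S::*FCA*. The levels of *HTR4* itself are given below.

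**Figure D2:**
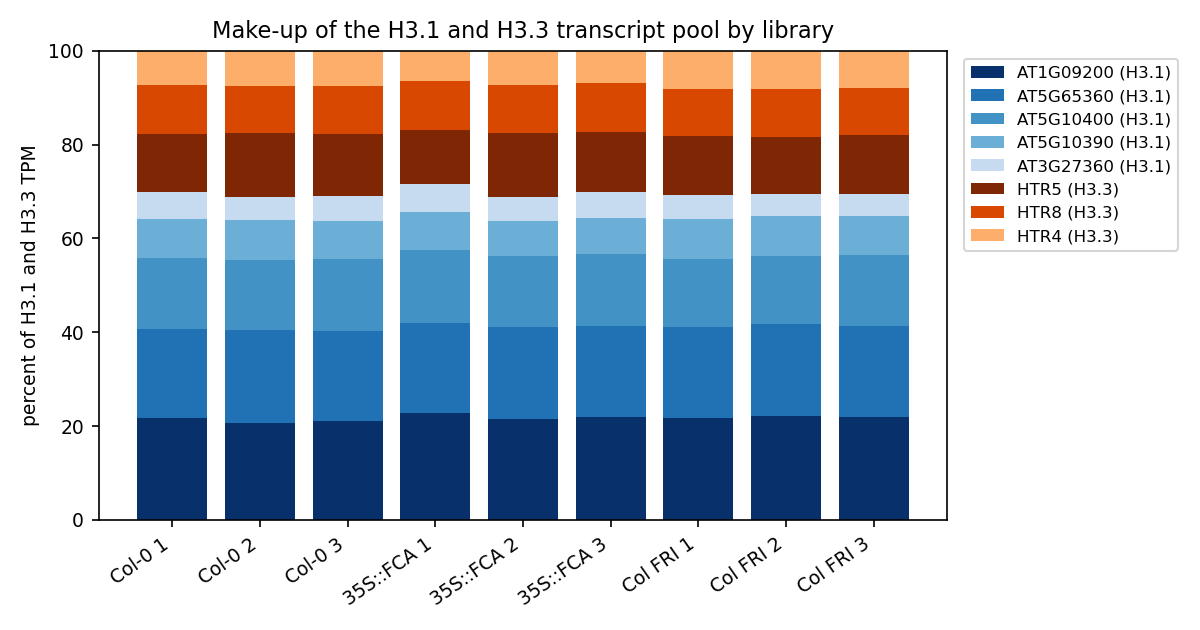
Share of each H3.1 and H3.3 gene in the summed H3.1 and H3.3 TPM of a library, in percent, as 1 stacked bar for each of the 9 libraries (H3.1 in blue, H3.3 in orange and brown). The H3.1 part ends between 68.8 and 71.7% in every bar.

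For comparisons between genotypes, CPM were scaled by TMM (trimmed mean of M values, which corrects for a few dominant genes) and are called normalised CPM. They were tested with edgeR's quasi-likelihood test over all 18585 genes that passed the filter, and a gene was called at an adjusted p under 0.05. In these bulk samples, fewer cells of a type and less RNA per cell cannot be told apart.

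The comparison of Col *FRI* with Col-0 covers active *FRI* and vernalization together. *CENH3* was the H3 gene called, lower in Col *FRI*. Its normalised CPM was 52.1, 49.1 and 48.0 in Col-0 and 42.2, 41.9 and 44.0 in Col *FRI*, so the groups did not overlap. The log2 fold change was -0.22 (SE 0.0623, edgeR adjusted p = 0.0431), a fall of 14.2%. One called gene of 9 tested is close to the background, since 13.3% of all genes tested were called in this comparison and 7.22% were called lower. The call was lost without Col-0 replicate 1 (adjusted p = 0.116) or 2 (0.0568) and without Col *FRI* replicate 1 (0.145), 2 (0.157) or 3 (0.109), while the log2 fold change stayed between -0.26 and -0.19 under all 16 alternatives.

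The 8 H3.1 and H3.3 genes did not pass the test. The H3.1 gene AT3G27360 had the largest difference in this class, with 410, 344 and 398 normalised CPM in Col-0 and 312, 311 and 313 in Col *FRI*. All 3 Col *FRI* values were below all Col-0 values, with a log2 fold change of -0.30 (SE 0.129, edgeR adjusted p = 0.153). AT5G10400 was at 817, 783 and 875 in Col-0 and 687, 731 and 746 in Col *FRI* (log2 fold change -0.19, SE 0.102, edgeR adjusted p = 0.234). These groups also lay apart. AT5G65360 was at 1138, 1152 and 1196 in Col-0 against 1031, 1090 and 1064, and AT5G10390 at 482, 472 and 490 against 437, 454 and 439. Both were without overlap, with log2 fold changes of -0.13 and -0.12 and edgeR adjusted p of 0.372 and 0.459. AT1G09200, the H3.1 gene with the highest TPM, was at 1045, 964 and 1074 in Col-0 and 918, 992 and 974 in Col *FRI*, and these overlapped (log2 fold change -0.10, edgeR adjusted p = 0.593).

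Among the H3.3 genes, *HTR5* was at 916, 962 and 1021 normalised CPM in Col-0 and 819, 838 and 840 in Col *FRI*. The groups did not overlap, the log2 fold change was -0.21 (SE 0.0804) and the edgeR adjusted p was 0.105, whereas DESeq2 called *HTR5* (adjusted p = 0.0205) and not *CENH3* (0.0754). *HTR8* was at 618, 580 and 642 in Col-0 and 526, 557 and 545 in Col *FRI*, without overlap (log2 fold change -0.18, edgeR adjusted p = 0.234). *HTR4* was at 474, 464 and 505 in Col-0 and 457, 485 and 472 in Col *FRI*. These groups overlapped, with a log2 fold change of -0.03 (95% interval -0.20 to 0.14, edgeR adjusted p = 0.834).

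All 9 tested H3 genes thus had a negative log2 fold change in Col *FRI* against Col-0, with a median of -0.18. Over all genes tested, the median was -0.01 and 50.9% were negative. For 7 of the 9, all Col *FRI* libraries were below all Col-0 libraries, as for 18.1% of all genes tested. Summed over genes, H3.1 stood at 3715 to 4033 normalised CPM in Col-0 against 3385 to 3579 in Col *FRI*, and H3.3 at 2006 to 2167 against 1802 to 1880. The 3 Col *FRI* libraries had fewer counts than any Col-0 library, and their closeness to each other is given above. Their part in these differences was not tested. The 9 genes share libraries and scaling, so they are not independent of each other.

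**Figure D3:**
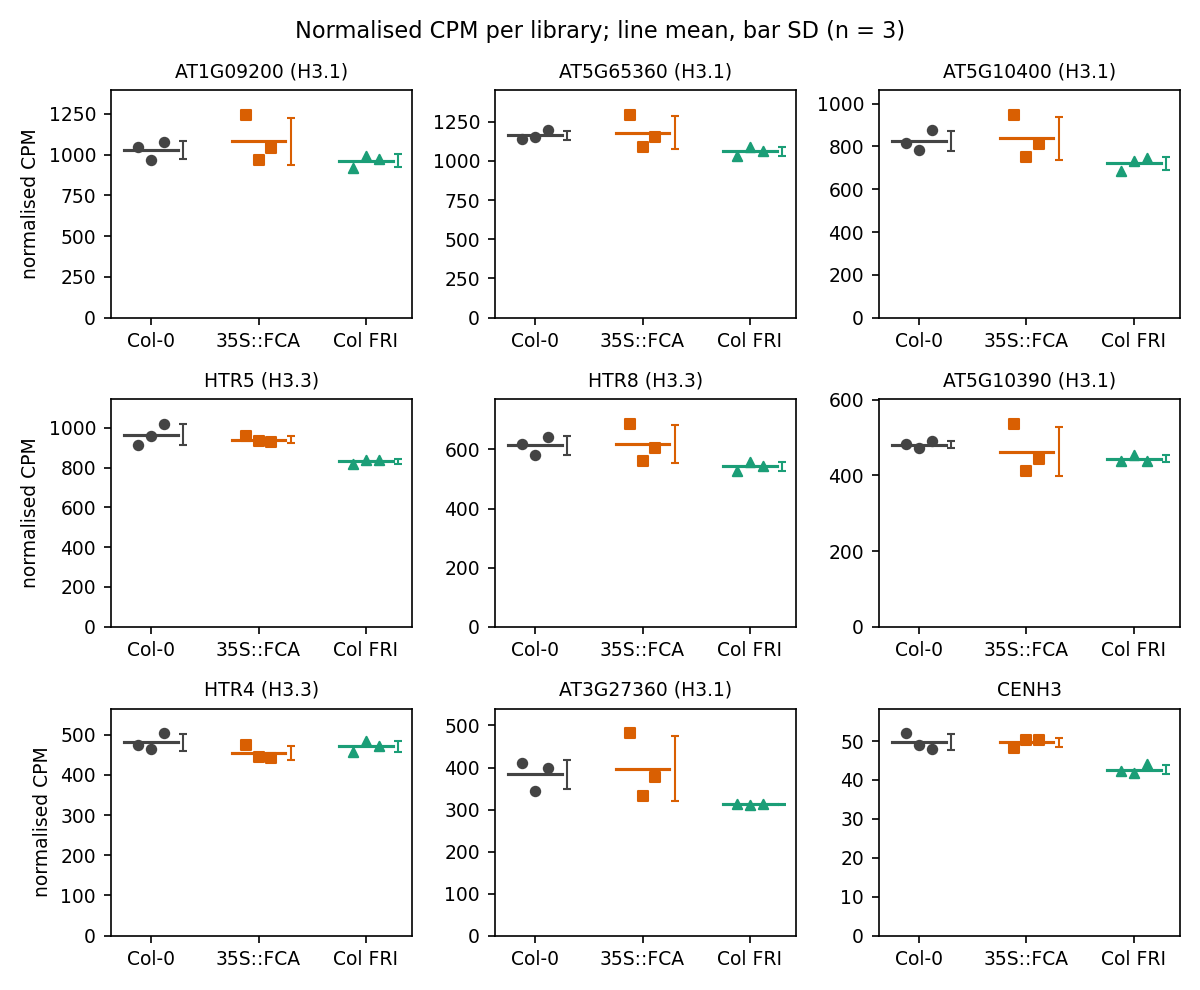
Normalised CPM of the 9 tested H3 genes in each library, 1 panel for each gene, with the mean as a line and the SD as a bar (n = 3 libraries for each genotype, every axis from 0). The Col *FRI* points lie below all Col-0 points in 7 panels and overlap them for AT1G09200 and *HTR4*.

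The comparison of 35S::*FCA* with Col-0 asks what overexpressed *FCA* changes. It uses the same Col-0 libraries. None of the 9 tested H3 genes was called by edgeR, none had an unadjusted p under 0.05 and DESeq2 called none, while edgeR called 1.52% of all genes tested. Log2 fold changes ran from -0.09 (*HTR4*, 95% interval -0.25 to 0.08) to 0.07 (AT1G09200, -0.17 to 0.31). The intervals of all 9 genes included 0. The widest was that of AT3G27360 (-0.24 to 0.34) and the narrowest that of *CENH3* (-0.14 to 0.13). No H3 gene had groups without overlap, against 19.1% of all genes tested.

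For H3.1 genes the 35S::*FCA* libraries spread widely in normalised CPM. Replicate 1 had the highest normalised CPM of all 9 libraries for each of the 5 H3.1 genes and *HTR8*. AT1G09200 was at 1243 in it, and at 966 and 1039 in replicates 2 and 3. AT3G27360 was at 482, 331 and 378, a coefficient of variation of 19.5%. *HTR5* (960, 933 and 928; 1.86%), *HTR4* (473, 445 and 442; 3.85%) and *CENH3* (48.3, 50.4 and 50.3; 2.38%) were close together in the same libraries. H4 genes together were also highest in replicate 1, at 5504 normalised CPM against 3878 and 4373. These spreads depend on the scaling. In TPM, summed H3.1 was at 5029, 5232 and 5220 in replicates 1, 2 and 3, and AT3G27360 at 423, 382 and 405. Summed H3.3 was at 1986, 2369 and 2252 TPM in these libraries, and *CENH3* at 39.3, 53.7 and 49.8 TPM. Without 35S::*FCA* replicate 1 the largest log2 fold change of an H3 gene in either direction became 0.18 in size. The smallest edgeR adjusted p among the tested H3 genes was then 0.206, and no H3 gene was called.

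Col *FRI* was also set directly against 35S::*FCA*, with the Col *FRI* libraries used above. *CENH3* was again the H3 gene called, at 42.2, 41.9 and 44.0 normalised CPM in Col *FRI* and 48.3, 50.4 and 50.3 in 35S::*FCA*, which did not overlap. The log2 fold change was -0.22 (SE 0.0623, edgeR adjusted p = 0.0452), a fall of 14.0%, and 12.9% of all genes tested were called. This call was lost without any 1 of the Col *FRI* libraries (adjusted p = 0.157, 0.163 and 0.109 without replicates 1, 2 and 3) and without 35S::*FCA* replicate 2 (0.112) or 3 (0.159). AT3G27360 had the largest difference, -0.35 (SE 0.129, edgeR adjusted p = 0.104). It was called without 35S::*FCA* replicate 2 (adjusted p = 0.0435), and without 35S::*FCA* replicate 1 it was -0.18 (0.225), smaller in size than *CENH3* at -0.24 in the same fit. *HTR4* was the H3 gene with a positive value, 0.06 (edgeR adjusted p = 0.649). For 6 of the 9 genes all Col *FRI* libraries were below all 35S::*FCA* libraries, as for 21.6% of all genes tested.

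**Figure D4:**
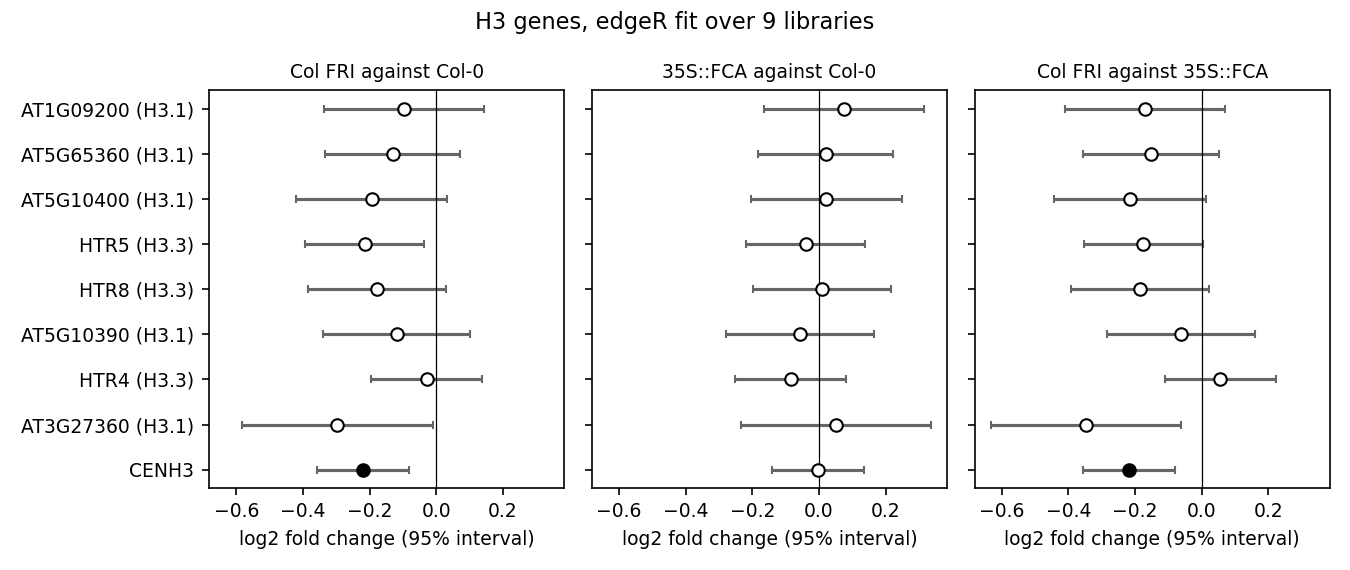
Log2 fold change of each tested H3 gene with its 95% interval in the 3 comparisons, from the edgeR fit, with filled points at an adjusted p under 0.05. All points lie left of 0 in Col *FRI* against Col-0, and *CENH3* at -0.22 is the filled point in both comparisons with Col *FRI*.

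Isoform use of the H3 genes was compared for the 3 genes with more than 1 model, and none was called in any comparison, against 0.435, 0.19 and 0.435% of the 3679 genes tested in the order above. The first model of *HTR5* gave at least 97.7% of its TPM in every library. The first *CENH3* model gave 28.2 to 34.7% of the gene's TPM in Col-0, 27.9 to 37.6% in 35S::*FCA* but 22.2 to 27.4% in Col *FRI*, with an edgeR adjusted p of 1 in all 3 comparisons. The third *HTR4* model was minor, at 1.41 to 2.22% in Col-0, 1.81 to 2.25% in 35S::*FCA* but 0.913 to 1.10% in Col *FRI*. Its Col *FRI* values lay below the others, but *HTR4* did not pass the test in Col *FRI* against Col-0 (edgeR adjusted p = 0.598) or against 35S::*FCA* (0.218).

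Genes that deliver or read H3 were taken from fixed lists. In Col *FRI* against Col-0, 2 of the 5 H3.3 deposition genes were higher and none lower, where 6.04% of all genes tested were called higher: *CABIN1*, named for a subunit of the HIRA complex, and *ATRX*, a chromatin remodeller that acts with H3.3. *CABIN1* was at 10.3 to 12.8 normalised CPM in Col-0 against 14.9 to 15.7 in Col *FRI* (log2 fold change 0.43, SE 0.0950, edgeR adjusted p = 0.0191). *ATRX* was at 20.8 to 27.5 and 30.5 to 32.8 (0.44, SE 0.108, edgeR adjusted p = 0.0271). *HIRA*, *UBN1* and *UBN2*, the other members, did not pass the test, with log2 fold changes of -0.21, 0.10 and -0.34. None of the 3 CAF-1 subunits (*FAS1*, *FAS2* and *MSI1*), the 3 shared chaperones (*ASF1A*, *ASF1B* and *NASP*), the 2 centromere genes (*KNL2*, which takes part in CENH3 loading, and *CENPC*) or the 3 genes acting on H3.1 (*ATXR5*, *ATXR6* and *TSK*) was called. Their log2 fold changes were between -0.25 and 0.19.

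Of the other core histones, none of the 8 H4 genes was called, although all 8 were negative (median -0.11) in Col *FRI* against Col-0. All 8 were positive in 35S::*FCA* against Col-0 (median 0.12), also without a call. Replicate 1 stood apart here as well: the H4 sum was 5504, 3878 and 4373 normalised CPM in 35S::*FCA* and 4364, 3958 and 4350 in Col-0. Of 12 H2A genes tested, *HTA12* was higher (0.65, SE 0.146, edgeR adjusted p = 0.0192) and *HTA5* and *HTA7* were lower (-0.38 and -0.31, edgeR adjusted p = 0.0282 and 0.0392) in Col *FRI*, and 9 were not called. Over all genes tested, 6.04% were called higher and 7.22% lower. None of 10 H2B genes was called (median -0.16). Of 8 replication genes, *MCM6*, a subunit of the replicative helicase, and *PCNA1* and *PCNA2*, the sliding clamp, were lower (-0.32, -0.27 and -0.28, edgeR adjusted p = 0.0247, 0.0365 and 0.0263), against 7.22% of all genes tested. All 8 were negative, as were 50.9% of all genes tested. In the other 2 comparisons no gene of the histone, chaperone or replication lists was called by edgeR. All 8 calls on these lists were lost without any 1 of the Col *FRI* libraries (edgeR adjusted p between 0.0624 and 0.136), 6 were lost without Col-0 replicate 1 (0.0601 to 0.106) and 3 without Col-0 replicate 2 (0.0565 to 0.0803). All 8 were also lost with limma and with the Col *FRI* libraries added up to 1 sample (adjusted p between 0.102 and 0.498).

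**Figure D5:**
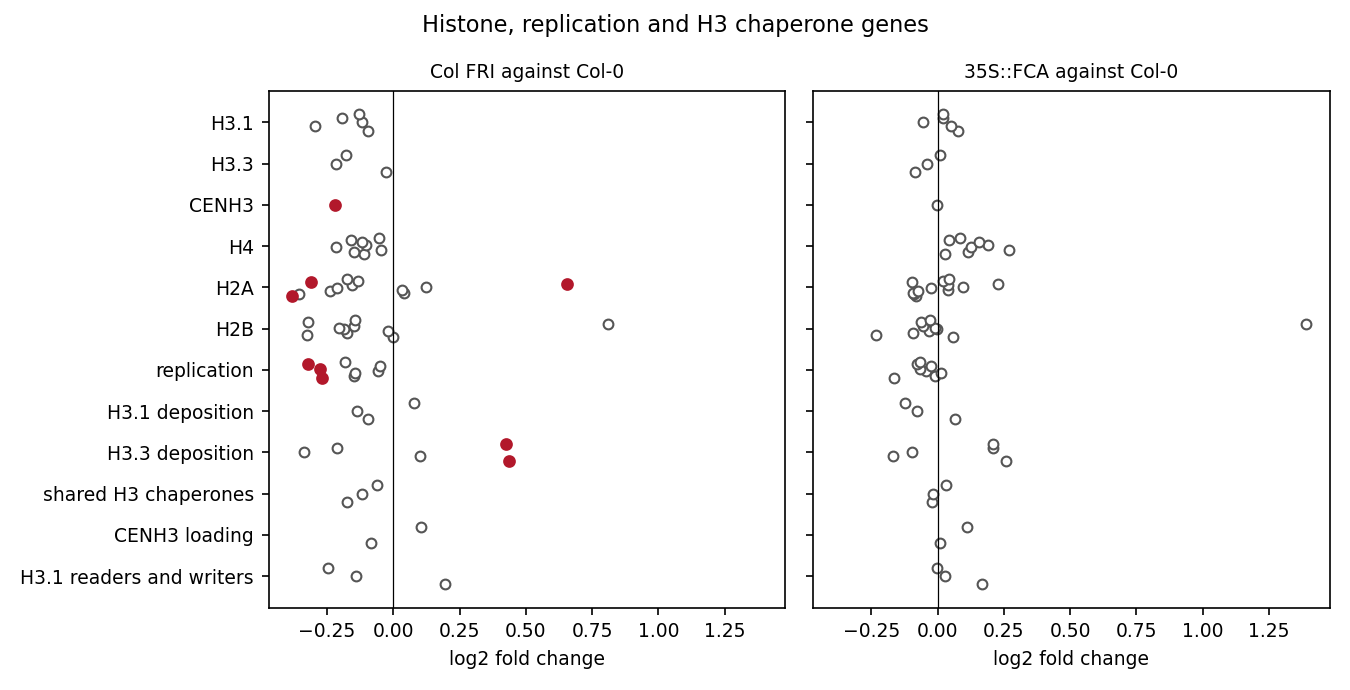
Log2 fold changes of the H3 genes and of the histone, replication and H3 chaperone lists (1 point for each gene tested) in Col FRI against Col-0 and in 35S::FCA against Col-0, which share the Col-0 libraries. Filled red points are at an edgeR adjusted p under 0.05: *CENH3* and 8 list genes on the left, and none on the right.

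Over the 9 libraries, the summed H3.1 and H3.3 log2 CPM moved together (Pearson r = 0.88), and less so H3.1 with *CENH3* (0.49) and H3.3 with *CENH3* (0.63). The genes most like summed H3.1 were AT5G59690 (an H4 gene), *HTA6* (H2A), *HTR8*, AT1G18745 and *HTA13* (H2A), with r of 0.99, 0.99, 0.99, 0.98 and 0.98. *HTR8* is an H3.3 gene by its protein. The genes most like summed H3.3 were AT2G19340, AT5G65925, *PLL1*, *RCI2A* and *SHH1* (0.97 to 0.99), and those most like *CENH3* were *RPN13*, *RBL2*, AT4G21820, *SSE1* and *IAA9* (0.98 to 0.99). These describe 9 libraries that share genotype, depth and scaling, and many genes moved alike. An r over 0.9 was reached by 102 genes with summed H3.1, 101 with summed H3.3 and 233 with *CENH3*, of 18580, 18582 and 18584 genes ranked.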

How the data were processed

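RNA-seq was done on 9 libraries of early heart embryos, 3 for each genotype. The deposited estimated counts per transcript model were made by the authors with kallisto and were not normalized. The submitters' processing notes name kallisto and TAIR10, and the version is not given in the sources used here. The deposited TPM values were scaled by the authors over all entries of their index and depend on its transcript lengths. Replicates are biological by the labels, with 15166826 to 25847613 estimated counts each.

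Estimated counts were summed per locus, rounded and tested with edgeR 4.0.16 in R 4.3.3 (filterByExpr, TMM, quasi-likelihood, all 9 libraries, no replicate block), with Benjamini-Hochberg adjustment over 18585 genes. Standard errors were derived from the F statistic of each log2 fold change. Isoform use was tested with diffSpliceDGE on rounded transcript counts. TPM was used to set genes side by side within a library, and for shares and marker levels given by genotype without a test. It was also the input of the limma alternatives. A floor of 3 counts was taken. Functions were tested on simulated data. Sequences and gene models are RefSeq's (TAIR10.1); all 10 loci matched, and protein sequences were not used.

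Named genes are the 10 H3 genes, 5 H3-like genes, up to 3 called genes with the smallest p from each list, and the 5 genes with the highest r to each H3 class. Members and lists were chosen with earlier results of these data known. Alternatives were RLE, 2 other filters, DESeq2 1.42.0, limma 3.58.1 on log2(TPM + 0.1) and log2(TPM + 1), only the 2 genotypes compared, a replicate block, length-scaled counts, a stricter threshold and each library left out. Summed Col *FRI* libraries and RefSeq lengths were chosen after seeing the data.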

Additional observations from a re-analysis of the deposited data

How the results depend on the processing

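The call of *CENH3* depended on the processing. The number of H3 genes called in Col *FRI* against Col-0 fell from 1 to 0 at an adjusted p under 0.001 with a fold change above 2, without a filter on low counts, with limma at either pseudocount, with only the 2 genotypes compared, with a replicate block and with the 3 Col *FRI* libraries added up to 1 sample, and ranged from 0 to 1 with each library left out. In Col *FRI* against 35S::*FCA* it fell from 1 to 0 at the stricter threshold, without a filter, with DESeq2, with limma at either pseudocount, with a replicate block, with length-scaled counts and with the summed Col *FRI* libraries, and ranged from 0 to 1 with each library left out. The causes were not tested. The summed and left-out fits also hold fewer samples than the main fit. *CENH3* itself had an adjusted p under 0.05 in 4 of 16 alternatives in each of these comparisons, between 0.0198 and 0.507 and between 0.0152 and 0.504. With DESeq2 the H3 gene called in Col *FRI* against Col-0 was *HTR5*, and *CENH3* was not called (DESeq2 adjusted p = 0.0754). Without 35S::*FCA* replicate 2 the H3 gene called in Col *FRI* against 35S::*FCA* was AT3G27360, and *CENH3* was not called (edgeR adjusted p = 0.112). In 35S::*FCA* against Col-0 the count was 0 under all alternatives run.

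*HTR4* in Col *FRI* against 35S::*FCA* turned from 0.06 to -0.0592 and -0.0591 with limma at a pseudocount of 0.1 and 1, where the median of all genes moved to -0.12 and -0.10, and AT5G10390 turned from -0.06 to 0.056 without 35S::*FCA* replicate 1, with a range of -0.142 to 0.056 over left-out libraries. The H3.1 share was 65.3% in Col-0, 66.2% in 35S::*FCA* and 65.5% in Col *FRI* in estimated counts, and 70.5% in Col-0 and 70.6% in Col *FRI* per RefSeq length. In 35S::*FCA* the share per RefSeq length stayed within 1 SD (1.45 percentage points) of that in TPM. With each library left out the H3.1 share stayed within 1 SD. With so few libraries in a genotype, leaving a library out cannot move the mean that far. This check could not fail, so no conclusion is drawn from it.

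Deviations of same-numbered libraries of different genotypes had r from -0.11 to 0.27, over 0.1 in 2 of 9 pairs. For differently numbered libraries r was -0.33 to 0.27, over 0.1 in 2 of 18 pairs. Col *FRI* libraries, being near sampling noise, could show little pairing. Col-0 with 35S::*FCA* gave 0.22, 0.27 and -0.11 for replicates 1, 2 and 3. These values do not settle pairing, and the numbers were not taken as pairs. With the replicate block *CENH3* had an edgeR adjusted p of 0.0891 against Col-0 and 0.0904 against 35S::*FCA*. The block also ended the calls of *HTA7*, *MCM6*, *PCNA1* and *PCNA2* in Col *FRI* against Col-0 (adjusted p between 0.0518 and 0.0775). Counts of all genes called ranged from 20 to 4139, 1 to 1608 and 76 to 4478 over the alternatives for Col *FRI* against Col-0, 35S::*FCA* against Col-0 and Col *FRI* against 35S::*FCA*. Depth limits *HTR10*, whose counts were 0 to 12.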
